A study of Mus musculus with 2 samples.

Results

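The alpha and beta tubulins are the protein pair from which microtubules are built, and 9 of their genes were followed here in mouse hippocampus: the alpha genes Tuba1a, Tuba1b, Tuba1c and Tuba4a and the beta genes Tubb2a, Tubb2b, Tubb3, Tubb5 and Tubb6. The members were chosen by name, as the array probes whose gene name in the scanner output equals one of these 9 symbols. This gave 13 probes of 55681 on the array, for 9 of 34741 gene names, and all 9 genes were among the 25917 genes measured on both arrays. The study compared ICR mice after a sham operation with ICR mice labelled 5/6Nx, read here as 5/6 nephrectomy, an operation that leaves only a fraction of the kidney tissue, 8 weeks after surgery. Each group has 1 array of hippocampal total RNA. The labels give no age, sex or number of animals behind an array, and both groups are the same outbred strain. With 1 array per group a difference has no replicate check, so no test was made, and each difference describes these 2 arrays.

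An alpha and a beta tubulin fold with the help of chaperones, join as a dimer and add end to end to form the wall of the microtubule, the track for axonal transport and a support of axon and dendrite shape. Mammals carry several genes of each kind, whose proteins are alike in the body and differ mainly in the tail at the C terminus, where enzymes add or remove glutamate, glycine and tyrosine. Cells also adjust tubulin mRNA to the amount of free dimer: when dimer is in excess, a factor that recognises newly made tubulin on the ribosome directs the mRNA to decay.

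The tubulin coding sequences resemble each other, so the probes are shown first, because a reading belongs to a gene only as far as its probe differs from the transcripts of the others. Positions are those of the scanner output on mm9, and the bases are given 5′ to 3′. The probe of Tuba4a, which begins well inside the transcript, is shown whole. It lies at chr1:75212307-75212366 on the minus strand and starts at base 1235.
Tuba4a: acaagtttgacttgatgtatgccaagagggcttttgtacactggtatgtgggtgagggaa

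A further 10 probes begin at base 1441 or later of their transcripts, and 30 bases of each are shown. In the Tubb2b, Tuba1a and Tuba1c pairs the capitals mark bases shared by both probes of the gene, and in Tubb3 they mark the letters AATAAA, the usual polyadenylation signal.
Tubb2b, first probe: tGGCTAAAATCACATAAACCTTTGTGTCCT
Tubb2b, second probe: GGCTAAAATCACATAAACCTTTGTGTCCTa
Tuba1a, first probe: attttgacagagacCCCAAGCTGCCCAttt
Tuba1a, second probe: CCCAAGCTGCCCActtcactgatgggtttt
Tuba1c, either probe: TGTGTGCTCTAACTGTCCTAAACTGTCAAT
Tubb3: acttAATAAAgttactgctgtctgtcagat
Tuba1b, second probe: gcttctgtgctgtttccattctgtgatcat
Tubb2a: ggtctttctatttgtaaattatggtgctca
Tubb5: gctgcttagatccctcagctttctccaact

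Over the 62 pairs of probes for different members, that of Tubb6 left out, the longest run of identical bases was 10 of 60, so no tubulin probe carried a long stretch of another member's probe. Probes of the same gene were less independent of each other. The Tubb2b probes, at chr13:34219092-34219151 and chr13:34219061-34219120 on the minus strand, share 29 bases. The Tuba1c probes, at chr15:98868488-98868547 and chr15:98868477-98868536 on the plus strand, overlap by 49 bases with 48 matches and 1 substitution, A43G, counted from base 1 of the first probe. The Tuba1c probes therefore read nearly the same stretch of RNA and the Tubb2b probes a partly shared one, whereas the Tuba1b probes share no run longer than 6 bases. These comparisons are of probe with probe, and probes from different parts of similar transcripts need not share a long run. The comparisons therefore cannot say how far a probe matches the transcript of another member. Matches of the probes to other transcripts were not analysed here, nor was the exon or UTR in which each lies. Of the other probes, some lie at chr15:98780266-98780325 for the second of Tuba1a, chr15:98761923-98761982 for the second of Tuba1b and chr17:35971872-35971931 for Tubb5, all on the minus strand, and at chr8:125945850-125945909 on the plus strand for Tubb3. For the first Tuba1a probe and for Tubb2a the scanner output gives a shorter interval than the probe, chr15:98780278-98780293 and chr13:34166116-34166145.

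On both arrays all 13 probes were well above background, and none was saturated or carried an outlier flag. A value below is the processed signal, a background-subtracted brightness on a linear scale. A difference is the log2 of that signal relative to the array's 75th percentile, which was 1452 in sham and 1263 in 5/6Nx, taken as 5/6Nx minus sham, so that -1 is 2-fold lower in 5/6Nx. The scanner software assigned each of these signals an error of about 10%, which gives 0.20 on a difference. The median SD between different probes of a gene was likewise 0.20, over 7995 genes. These errors cover the measurement on an array and not the spread between animals.

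In the 5/6Nx library 8 of the 9 tubulins were lower and 1, Tuba1c, was higher. At least 2-fold lower were Tubb2b, Tubb3 and Tuba1a, 3 of 9, where 3.29% of all measured genes lay that low. At least 1.5-fold lower were 7 of 9, against 8.92% of all measured genes. None was at least 2-fold higher, as 4.89% of measured genes were, and Tuba1c alone was at least 1.5-fold higher, as 13.7% were. The members' median difference was -0.85, against 0.05 over all measured genes, whose 5th to 95th percentiles ran from -0.82 to 0.99. A scaling that shifts every gene alike moves these counts. Scaled to the array median, all genes shifted by -0.16, and scaled to the spike-in controls by -0.22. Of the genes at least 2-fold different, 59.8% were higher with the 75th percentile, 41.5% with the median, 36.3% with spike-ins, 49.2% with quantile-normalized values, 47.9% where the trend with signal was removed and 49.4% in the authors' deposited table. Relative to the median of all genes, Tubb2b stood at -1.60, Tubb3 at -1.53, Tuba1a at -1.09 and Tuba1c at 0.64 under all 3 of the constant scalings.

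**Figure D1:**
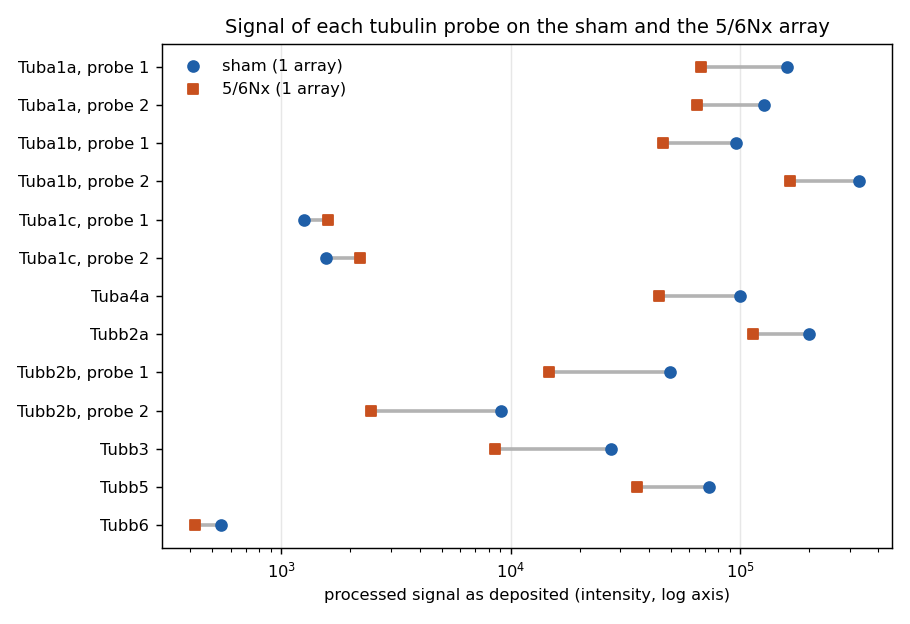
Processed signal (log axis) of each of the 13 tubulin probes on the sham array (circles) and the 5/6Nx array (squares), 1 array per group. The square lies left of the circle for 11 probes and right of it for both Tuba1c probes, where sham gave 1254 and 1566 and 5/6Nx 1599.6 and 2203.

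Among the beta tubulins, Tubb2b, an isotype of developing neurons whose mutations disturb cortical formation, had the lowest difference. Its first probe read 49411 in sham and 14705 in 5/6Nx, a difference of -1.55, or 2.92-fold lower. Its second probe read 9039 and 2451, a difference of -1.68, or 3.21-fold lower. Both probes thus put 5/6Nx below sham by more than 2-fold, on a stretch that they partly share. Of all measured genes, 1.03% lay at or below the first probe's value.

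Tubb3, the class III isotype used as a marker of neurons, came next. Its 1 probe read 27407 in sham and 8563 in 5/6Nx, a difference of -1.48, or 2.78-fold lower. The gap of 0.07 to Tubb2b is within the spread between probes of a gene, so the order of these 2 is not settled.

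Tubb5 is the beta isotype expressed in most cell types, dividing progenitors included. It read 73352 in sham and 35317 in 5/6Nx, a difference of -0.85, or 1.81-fold lower. Tubb2a, an abundant brain isotype and the close relative of Tubb2b, read 199195 and 113702, a difference of -0.61, or 1.52-fold lower. The Tubb2a difference was 0.94 above that of Tubb2b, a gap beyond the spread between probes of a gene. Tubb6, an isotype prominent outside neurons, whose probe lies at chr18:67562310-67562369 on the plus strand, read 546 and 421, a difference of -0.17, the only one of the 13 probes that was smaller than its error of 0.20. Scaled in other ways the Tubb6 difference exceeded that error: it was -0.25 with quantile-normalized values and in the authors' deposited table, -0.27 where the trend with signal was removed, -0.34 with the median and -0.39 with spike-ins. With other handling of background the Tubb6 difference stayed smaller than that error, at -0.09 under normexp correction and -0.09 where background was not subtracted.

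Among the alpha tubulins, Tuba1a, the main alpha gene of neurons that are growing their processes, lay lowest. Its first probe read 159059.5 in sham and 67556 in 5/6Nx, a difference of -1.03, or 2.05-fold lower. Its second probe read 126947 and 64932, a difference of -0.77, or 1.70-fold lower. The probes agree in direction and stand on either side of 2-fold, and their mean of -0.90 misses it. An array probe that carries no gene name and no position shares 39 bases with the second Tuba1a probe, and it read 36533.5 and 16108, a difference of -0.98.

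Tuba1b, a widely expressed alpha gene, was lower by nearly the same amount on both of its probes, which do not overlap. The first read 95787 in sham and 45881 in 5/6Nx, a difference of -0.86. The second read 330011 and 164499.7, a difference of -0.80, or 1.75-fold lower. Tuba4a, a gene of mature neurons whose protein is made without the final tyrosine of other alpha tubulins, read 99231 and 44294, a difference of -0.96, or 1.95-fold lower. From Tuba4a to Tubb5 and on to Tuba1b the steps were 0.11 and 0.05, within the spread between probes of a gene, so their order is not settled.

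Tuba1c, the third of the alpha genes that lie close together on chromosome 15, went the other way. Its first probe read 1254 in sham and 1599.6 in 5/6Nx, a difference of 0.55. Its second probe read 1566 and 2203, a difference of 0.69, or 1.62-fold higher. Both differences exceed their error, but the probes cover nearly the same bases and are close to 1 measurement. Tuba1c stood 1.497 above Tuba1b. Of all measured genes, 89.7% lay at or below it.

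**Figure D2:**
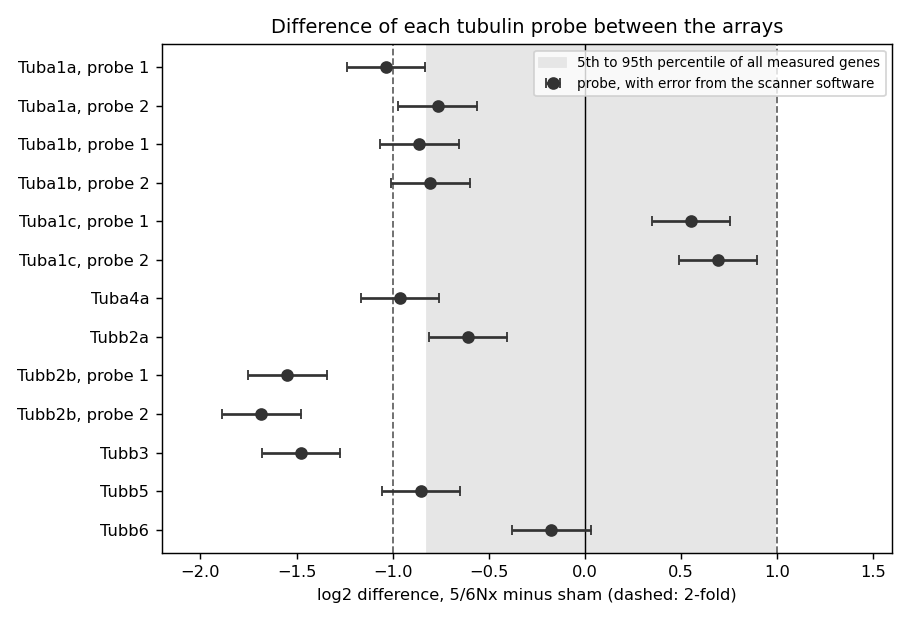
Log2 difference, 5/6Nx minus sham, of each tubulin probe (points) with the error from the scanner software (bars); grey marks the 5th to 95th percentile of all measured genes and dashed lines mark 2-fold. Both Tubb2b probes, Tubb3 and 1 of the 2 Tuba1a probes lie at or beyond 2-fold lower, and both Tuba1c probes lie above 0.

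From lowest to highest the order was Tubb2b, Tubb3, Tuba1a, Tuba4a, Tubb5, Tuba1b, Tubb2a, Tubb6 and Tuba1c. Only 3 steps in it exceed the spread between probes of a gene: 0.44 from Tubb3 to Tuba1a, 0.43 from Tubb2a to Tubb6 and 0.87 from Tubb6 to Tuba1c. By steps between neighbours the members fall into Tubb2b with Tubb3, a middle run of 5 genes, and Tubb6 and Tuba1c on their own. The middle run is loose: it reaches from -1.03 for Tuba1a to -0.61 for Tubb2a, about as wide as the steps around it. Its step of 0.196 from Tuba1b to Tubb2a is just under the spread of 0.202. Alpha and beta genes were alike in their medians, -0.88 over 4 and -0.85 over 5. By probe, 11 of 13 were below 0. Of the 13, 4 were at least 2-fold lower, where 3.24% of 38536 measured probes were, and 10 at least 1.5-fold lower, where 8.73% were.

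Most of the members are among the brightest genes, and bright probes spread less, so they were also set against genes of like signal, a comparison added after the data were seen. Tuba1a, Tuba1b, Tuba4a, Tubb2a, Tubb2b and Tubb5 lie in the top 10% of measured genes by mean signal. Of these 6, 2 were at least 2-fold lower, against 1.04% of 2592 genes in that range. All 6 were at least 1.5-fold lower, against 4.55%. The median difference in that range was -0.03, close to 0, and the 6 tubulins lay below it.

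**Figure D3:**
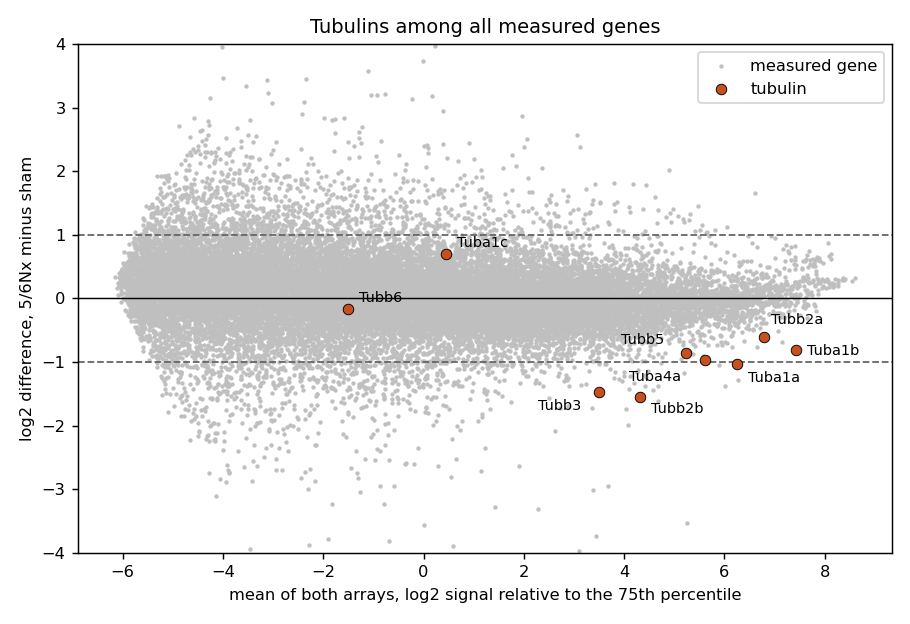
Mean log2 signal of both arrays relative to the 75th percentile (horizontal) against the log2 difference, 5/6Nx minus sham (vertical), for all measured genes (grey; 19 lie beyond the plotted limit of 4) and the 9 tubulins (orange, named). The 6 tubulins in the top 10% of signal lie below the bulk of equally bright genes, and Tuba1c and Tubb6 sit at middle signal.

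The tubulin genes outside the members did not share 1 direction. Of 11 listed, 10 were measured: 6 were below 0, 0 at least 2-fold lower and 1 at least 2-fold higher. Their median was -0.12. The 2-fold higher gene, Tuba3b, was below 2-fold in 7 alternatives, among them all 4 other scalings and the authors' deposited table. It stayed past 2-fold where outlier spots were kept. The number at least 2-fold lower was 2 with median scaling and 3 with spike-ins. Tubb4b, a broadly expressed beta isotype, read 80893 in sham and 38481 in 5/6Nx, a difference of -0.87. Tubb4a, the beta isotype of myelinating cells, read 10671 and 5022, a difference of -0.89. These 2 brain beta genes lay in the range of the members. Tubb1, the isotype of platelets, differed by -0.82 at a low signal, 221 and 109. The alpha genes Tuba3a and Tuba8 differed by 0.19 and 0.24, and Tuba3b by 1.02 from a signal of 50.1 and 88.0. The gamma tubulins, which nucleate microtubules and are not part of the wall, differed by -0.23 for Tubg1 and 0.44 for Tubg2. Tubd1 and Tube1 of centrioles differed by -0.02 and -0.24. A probe for the pseudogene Tubb2a-ps2 read 9631 and 4356, a difference of -0.94, and the part that RNA of Tubb2a or Tubb2b has in it was not tested.

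For the machinery that folds tubulin the list median was below 0 and nearer to it than that of the tubulins. Of 15 subunits of the CCT chaperonin and of prefoldin, which fold new tubulin and actin, 13 were below 0, 2 at least 1.5-fold lower and 0 at least 2-fold lower, with a median of -0.43. Of all measured genes 44.6% were below 0, 8.92% at least 1.5-fold lower and 3.29% at least 2-fold lower. The counts at 1.5-fold and 2-fold thus do not set the list apart, whereas 13 of 15 below 0 is a larger share than that of all genes. The chaperonin subunit Cct4 read 10260.4 in sham and 5324 in 5/6Nx, a difference of -0.75. The prefoldin subunit Pfdn4 differed by -0.69 and Cct8 by -0.57. The 7 cofactors that assemble the dimer had a median of -0.20 and no member at 2-fold. Arl2, the small GTPase of that step, differed by -0.59, Tbcb by -0.47 and Tbcd by 0.33, with Tbcd's own probes from -0.19 to 0.61. The 5 genes of tubulin mRNA decay had a median of -0.08, and no member at 2-fold. Cnot11, Cnot1 and Cnot7, of the deadenylase complex, differed by -0.36, 0.25 and -0.20. Ttc5, the factor that recognises the nascent chain, differed by -0.08. Other probes of Cnot11 and Ttc5 read up to 0.24 and 0.36.

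Genes whose proteins modify or bind the microtubule were spread around 0. Of 7 genes of acetylation and tyrosination, with a median of 0.06, Vash2, a detyrosinating enzyme, differed by -0.98 at a signal of 65.9 and 29.1, Ttl, the tyrosine ligase, by -0.62 and the acetyltransferase Atat1 by 0.57, with its own probes from -0.23 to 0.57. Of 19 measured genes of glutamylation and glycylation, Ttll4 at 1.19 and Agbl3 at 1.07 were the 2 that were at least 2-fold higher, Ttll10 stood at 0.90 and the median was -0.05. The count of 2 was 1 with median scaling and 0 with spike-ins, with normexp and where background was not subtracted. The 16 microtubule-associated proteins had a median of -0.14, with Tppp at -0.63, Map6 at -0.53 and Map7 at 0.46. No gene of these 3 lists was at least 2-fold lower, except that the count for acetylation and tyrosination was 1 with quantile-normalized values, median scaling, spike-ins, the trend removed and the authors' deposited table.

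The stathmins, which hold free tubulin dimers and promote disassembly, were below 0 in all 4 cases. Stmn1 read 71093 in sham and 32059 in 5/6Nx, a difference of -0.95, and its other probe differed by -1.08, past 2-fold. Stmn3 differed by -0.77, Stmn2 by -0.27 and Stmn4 by -0.20. With the doublecortin family, which stabilises microtubules in young neurons, the list of 8 had a median of -0.24 and none at least 2-fold lower, or 1 with median or spike-in scaling. Dclk1 differed by -0.56, Dcx by -0.14, Dclk3 by 0.28 and Dclk2 by 0.52. Other probes of Dclk1 and Dcx read up to 0.36 and 0.38, so the direction of both depends on the probe. The neurofilaments, the other long polymer of the axon, were below 0 in 5 of 5, with a median of -0.70. Their heavy chain Nefh read 22355 and 10129, a difference of -0.94. Prph, the peripherin gene, differed by -0.79, the medium chain Nefm by -0.70 and the light chain Nefl by -0.10.

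**Figure D4:**
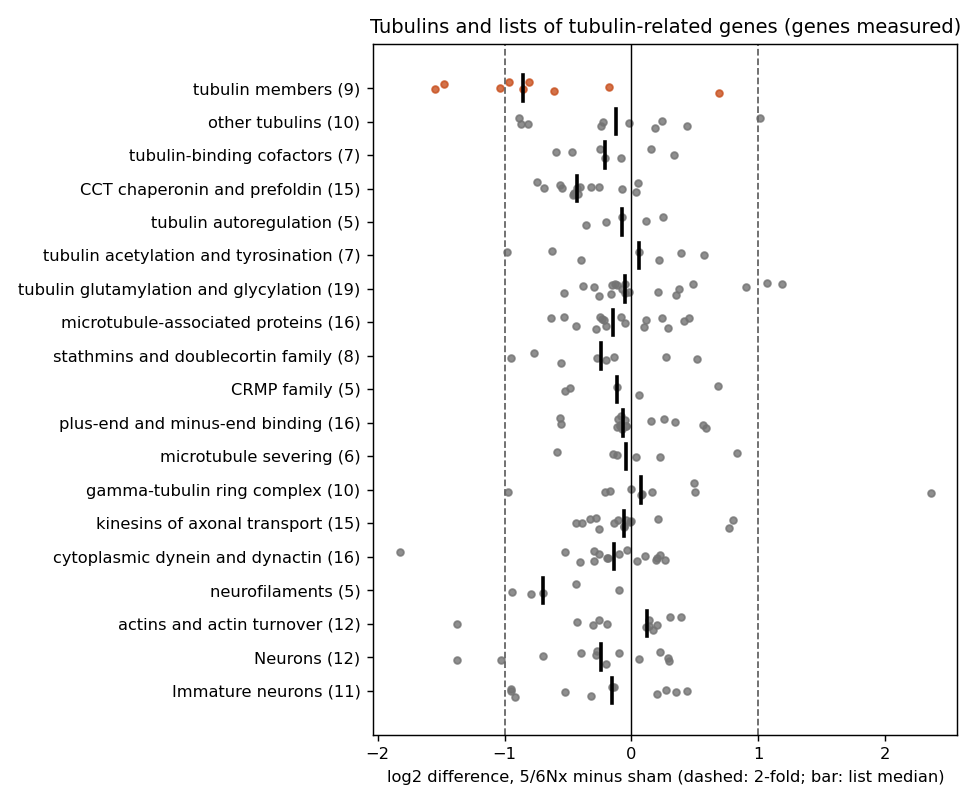
Log2 difference, 5/6Nx minus sham, of each measured gene (points) in the tubulin members and in lists of related genes, with the list median (bar) and 2-fold (dashed). The tubulin median of -0.85 lies below the medians of all 16 related lists, of which the neurofilaments at -0.70 come nearest.

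Over the 16 lists of tubulin-related genes, 172 entries were measured. Of these, 2 were at least 2-fold lower and 4 at least 2-fold higher, where 3.29% and 4.89% of all measured genes were. These totals depend on the scaling and were not counted under others. With median scaling the number at least 2-fold lower rose from 0 to 2 among the other tubulins. It rose from 0 to 1 for acetylation and tyrosination and for stathmins with the doublecortin family. Over all measured genes it rose from 852 to 1251. No list of the 16 had a median below that of the tubulins. The neurofilament median was -0.70, or -0.79 over the 3 genes not also in other lists. Both values are closer to the tubulin median of -0.85 than the spread of 0.20 between probes of a gene.

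The 2 libraries also differed in markers of other cell types, and the part of these in the tubulin differences was not tested. All 10 choroid plexus markers were above 0, 9 of them at least 2-fold higher in 5/6Nx, and their summed level, in units of the 75th percentile, was 17.9 in sham and 225 in 5/6Nx. All 10 leptomeningeal markers were below 0, 9 at least 2-fold lower, with sums of 56.8 and 15.4. Of 9 measured blood markers, 8 were at least 2-fold lower, with sums of 211 and 17.1. The medians of these 3 lists, 3.78, -2.09 and -3.73, lay farther from 0 than that of the tubulins. Of 12 markers of neurons, 8 were below 0 and 2 at least 2-fold lower, with a median of -0.24 and sums of 453 and 451. The growth-cone protein gene Gap43 read 49841 and 16709.6, a difference of -1.38, and Elavl4 differed by -1.03, whereas the synaptic genes Snap25, Syt1 and Syp stood at 0.29, 0.22 and 0.06. All 8 markers of GABAergic interneurons were below 0, 2 of them at least 2-fold lower, with sums of 121 and 72.4. That count of 2 was 1 with quantile-normalized values, the trend removed and the authors' deposited table, and 4 with median or spike-in scaling. Of 11 measured markers of immature neurons, 7 were below 0 and 0 at least 2-fold lower, with sums of 96.6 and 70.5. That count of 0 was 1 with quantile-normalized values, the trend removed and the authors' deposited table, and 3 with median or spike-in scaling. Some markers of neurons and of immature neurons are also in other lists, Stmn1 among them. Without these, 8 measured markers of immature neurons were left, 4 below 0 and 4 above, with sums of 35.7 and 36.7. The 8 markers of neurons left had a median of -0.07 and sums of 357 and 370. Among subfield markers, those of CA1 had a median of -0.59, with 2 of 5 at least 2-fold lower and sums of 69.8 and 45.0. That median is the value of Mpped1, whose other probe differed by 0.72. Over the alternatives the CA1 median ran from -0.80 to -0.17. The markers of CA2 and CA3 had a median of 0.46 and those of dentate granule cells 0.52. The sums for CA2 and CA3 were 67.0 and 66.4 and for dentate granule cells 11.4 and 10.3, opposite in direction to their medians. The medians were -0.57 for oligodendrocyte precursors, -0.48 for microglia, -0.37 for oligodendrocytes, -0.04 for astrocytes and 0.17 for endothelium. In the same order the sums were 22.2 and 14.3, 49.7 and 43.2, 201 and 232, 313 and 322, and 40.4 and 43.9. For oligodendrocytes and astrocytes the sum thus rose where the median was below 0. Of the 8 oligodendrocyte markers 7 were below 0, and only Ermn was above, at 0.81. The other probe of Ermn differed by -1.22, so the rise in that sum rests on 1 probe. In bulk tissue fewer cells of a type and less RNA per cell cannot be told apart.

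The promoters of members that moved in opposite directions are shown for what they share: Tubb3 and Tuba1a, lower in 5/6Nx, and Tuba1c, higher. Each is the 250 bases before the start in RefSeq, on GRCm38.p6, a build other than that of the probes. Of the 9 members 7 were searched: Tubb6 was left out beforehand, and Tubb2b had no entry. Capitals mark CCAAT, the box bound by NF-Y, and GGGCGG, the GC box bound by Sp1, on either strand. They lie at chr8:123411303-123411552 on the plus strand for Tubb3, chr15:98953502-98953751 on the minus strand for Tuba1a and chr15:99029641-99029890 on the plus strand for Tuba1c.
Tubb3: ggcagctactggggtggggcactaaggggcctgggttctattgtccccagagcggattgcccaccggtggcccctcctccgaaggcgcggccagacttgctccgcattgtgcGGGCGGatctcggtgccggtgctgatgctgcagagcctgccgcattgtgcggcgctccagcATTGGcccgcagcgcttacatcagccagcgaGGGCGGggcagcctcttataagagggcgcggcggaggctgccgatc
Tuba1a: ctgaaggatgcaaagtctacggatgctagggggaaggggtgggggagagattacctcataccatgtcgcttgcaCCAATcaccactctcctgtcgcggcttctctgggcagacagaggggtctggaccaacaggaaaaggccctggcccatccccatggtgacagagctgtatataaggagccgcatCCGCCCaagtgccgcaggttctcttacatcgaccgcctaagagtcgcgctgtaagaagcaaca
Tuba1c: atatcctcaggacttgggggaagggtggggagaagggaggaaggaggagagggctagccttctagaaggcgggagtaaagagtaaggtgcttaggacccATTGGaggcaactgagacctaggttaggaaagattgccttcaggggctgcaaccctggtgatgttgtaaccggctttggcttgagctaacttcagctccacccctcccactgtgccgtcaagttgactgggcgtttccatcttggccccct

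The letters CCAAT were present in 4 of the 7 promoters, those of Tuba1a, Tuba1c, Tubb3 and Tubb5, and in 33.8% of 32851 mouse promoters of that length. GGGCGG was present in 5 of 7, those of Tuba1a, Tuba1b, Tuba4a, Tubb2a and Tubb3, and in 32.7% of all. TATAAA was present in Tubb2a alone, against 12.4% of all, and CACGTG, the E-box, in Tubb5 alone, against 6.02%. GAANNTTC, the core of a heat shock element, was in none of the 7 and in 6.69% of all. Both strands were searched, and none of the 5 motifs contains another. The CCAAT box occurs on both sides of the split in direction, in Tubb3 and Tuba1a and in Tuba1c. The bases G and C made up 56.8% of the Tuba1a promoter, 68.0% of that of Tubb3 and 55.6% of that of Tuba1c, against a median of 52.4% over all promoters.

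**Figure D5:**
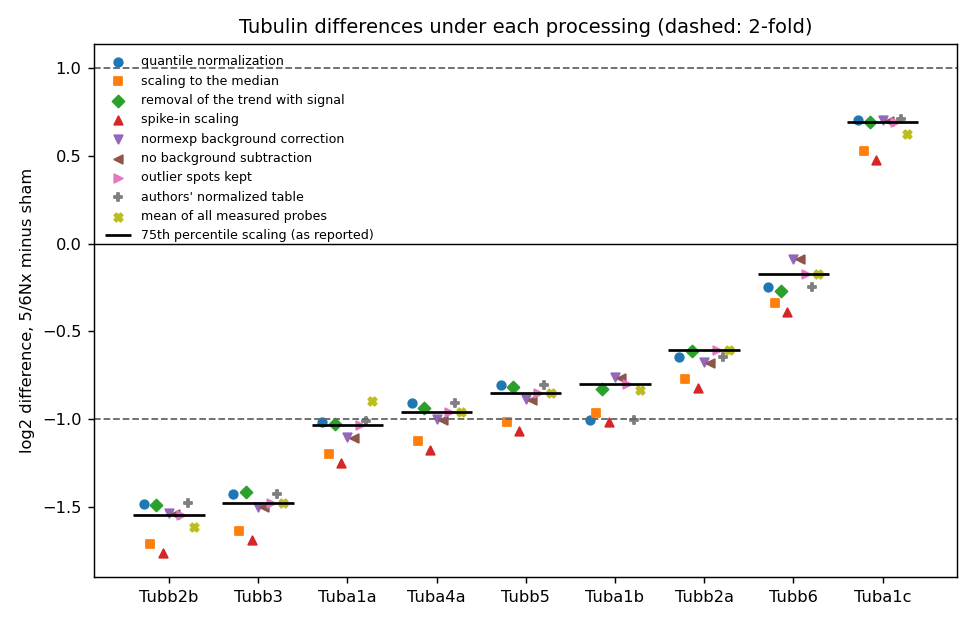
Log2 difference, 5/6Nx minus sham, of each of the 9 tubulins under each processing (symbols) beside the value reported here (black line); dashed lines mark 2-fold. All 81 alternative values keep the sign of the reported value, and they range from -1.76 to 0.71. Some of them repeat the reported value or each other by construction.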

How the data were processed

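Per the labels, total RNA of hippocampus from ICR mice, 1 sham and 1 5/6Nx sample 8 weeks after operation, was made into Cy3-labelled cRNA for 1-colour Agilent arrays. The scanner output deposited by the authors holds linear intensity values, background-subtracted and detrended within each array and not normalized between arrays, per the file headers. These name Feature Extraction 10.7.1.1, whereas the submitters' processing notes name 9.5.1.1. Both arrays lie on 1 slide. The authors' deposited table holds a linear intensity per probe with a median of 124 in each column. Each column of the table correlated with the scanner values of its own array at 1.000 and of the other at 0.983, on the log2 scale over 55674 probes.

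Control spots and outlier spots (105 in sham, 97 in 5/6Nx) were left out, and log2 values were taken relative to each array's 75th percentile. Of 59305 spots, 72.7% in sham and 72.5% in 5/6Nx were well above background, and spots of 1 probe differed by an SD of 0.055 and 0.053. A gene was read by its probe with the highest mean among those that exceeded background clearly on 1 array or both, and counted as measured when that probe was so on both. A threshold of 2-fold is a size and not a test. With 1 array per group no p-value was computed, and precision is limited by there being 2 arrays. Symbols were updated through RefSeq genes for 27235 probes by accession, 3581 through their symbol and 565 through a synonym, while 24300 stayed as the file names them. Python 3.11.15, pandas 2.3.3, R 4.3.3 and limma 3.58.1 were used, and the steps were tested on simulated data.

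The members and the 16 lists of related genes and 14 lists of cell type markers were chosen with earlier results of these data known. The sequences of 2 probes are not reported here. Named are all members. Of the lists described, the genes named come from those with the 3 largest differences. All genes of the lists of other tubulins, cofactors and stathmins could also be named, as could genes chosen after their values were seen, which are Snap25, Syt1, Syp, Nefl and Ttc5. Alternatives were other scalings, background corrections, thresholds, filters and the mean of a gene's probes.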

Additional observations from a re-analysis of the deposited data

How the results depend on the processing

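All 81 values of the 9 tubulins under 9 alternatives kept their direction, and 70 moved by less than the spread of 0.20 between probes of a gene. Some of the 81 could hardly move. The mean of a gene's probes equals the reported value for the 5 members with 1 probe. No member probe was an outlier spot, so keeping such spots changed only the scaling. The authors' deposited table gave nearly the values of quantile normalization, so these 2 alternatives are close to 1. The number at least 2-fold lower, 3 as reported, was 5 with scaling to the median, 6 with spike-in scaling, 7 at a threshold of 1.5-fold and 0 at 3-fold. The number at least 2-fold higher, 0 as reported, was 1 at 1.5-fold. The number at least 1.5-fold higher, 1 as reported, was 0 with scaling to the median and 0 with spike-in scaling. The members' median was -1.07 with spike-in scaling, against -0.85. Both scalings shift all genes alike, by construction. Tuba1b was -1.01 after quantile normalization and in the authors' deposited table, whose columns match in their sorted values as after that normalization. The cause of the shift in Tuba1b was not tested. Of all measured genes, 852 were at least 2-fold lower and 1268 higher. These counts were 1406 and 801 with spike-ins, 495 and 675 under normexp, 466 and 628 where background was not subtracted, 1668 and 2590 without a filter, and 305 and 319 above the median signal. At 1.5-fold they were 2313 and 3549, and at 3-fold 245 and 387. Counted by probe, 1991 were higher. In the top 10% of signal, a range added after the data were seen, they were 27 and 32. No array could be left out, since each group has 1. No paired analysis was possible because the groups hold a single array each.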

Other observations

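Motor proteins and actin genes did not follow the tubulins as lists. The 15 kinesins of axonal transport had a median of -0.06, with Kif1c at 0.80, Kif17 at 0.77 and Kif21a at -0.44. Of 16 measured subunits of dynein and dynactin, Dynll1, a light chain shared with many other complexes, read 3361 in sham and 824 in 5/6Nx, a difference of -1.83, and no other reached 2-fold, with Dctn3 at -0.52 and Dynll2 at -0.41. Of 12 actin genes and actin regulators, with a median of 0.12, Tmsb10, a thymosin that binds actin monomers, read 59520.4 and 19913.6, a difference of -1.38, with Cfl2 at -0.43 and Capzb at 0.39. Of 10 genes of the gamma-tubulin ring complex, Mzt1, a small subunit, read 684 and 3059, a difference of 2.36, and Tubgcp4 differed by -0.97 with its probes from -0.97 to 0.23, and Tubgcp2 by 0.50. The 5 collapsin response mediator genes had a median of -0.12, the 16 genes of microtubule ends -0.06 and the 6 severing genes -0.04.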
